A study of Homo sapiens with 2 samples.

Results

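Mismatch repair genes were examined in HCT116, a human colorectal cancer cell line known for its deficiency in DNA mismatch repair. The gene list held MSH6, MSH3, PMS1, MLH3, PMS2 and EXO1, and their probe sets were taken where the platform annotation pairs a probe set with 1 of these genes alone. That gave 16 probe sets for 5 of the 6 genes, out of 54675 probe sets on the array. PMS2 had no probe set of its own and entered no count. Other genes of the pathway, apart from the lists given further on, are not analysed here.

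Total RNA of 2 cultures was labelled with biotin and hybridised to 3′ expression arrays, 1 per culture. The first, HCT116-CPEB4, is the line made to over-express the RNA-binding protein CPEB4 from a lentivirus. The second, HCT116-GFP, is given as wild type, and the sources used here do not say whether it received a vector too. Both were grown in the same serum-containing RPMI-1640 medium and share the HCT116 background.

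Mismatch repair removes bases that DNA polymerases misinsert and the small loops that form when a polymerase slips on a repeat. MutS proteins find the error, MutL proteins are recruited and nick the new strand, an exonuclease removes the stretch that holds the error, and the replication machinery fills and seals the gap. Loss of the pathway leaves microsatellites unstable, the trait by which a class of colorectal tumours is recognised. HCT116 is also known to carry frameshift mutations in MSH3.

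With 1 array in each group there is no replicate, no test was possible and no p-value was computed. Precision is limited by the number of arrays throughout. In RNA from a whole culture, fewer cells expressing a gene and less RNA per cell cannot be told apart. Every difference is on the log2 scale, with the HCT116-GFP value subtracted from the HCT116-CPEB4 value, and a size of 2-fold was used as a yardstick. A probe set was kept when it reached an intensity of 60.8, the 50th percentile over both arrays, on at least 1 array, because dim probe sets vary widely on a ratio scale. Of the 16 member probe sets, 12 were kept and 4 were dim on both arrays.

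The transcript meant to be raised, CPEB4, read no higher in the sample labelled HCT116-CPEB4. Its 3 kept probe sets read 628, 558 and 174 there, against 731, 758 and 183 on the HCT116-GFP array. The remaining CPEB4 probe set, dim on both arrays, read 21.0 on the CPEB4-labelled array and 60.1 on the HCT116-GFP array. A probe set outside the introduced sequence would check nothing, and where the probe sets lie in the transcript is not known here. Directions below therefore rest on the labels. Of 9 markers of colon epithelial lines, 8 reached the filter, with EPCAM at 20717 on the CPEB4-labelled array and 20994 on the HCT116-GFP array, while LGALS4 was dim on both. Of the 4 listed blood and immune markers, CD68 had no probe set of its own and was not counted. The filter was also reached by 2 of 5 fibroblast, 1 of 3 immune, 1 of 3 endothelial and 3 of 3 kidney markers. Among these, COL1A1 read 1292, PAX2 408 and CD79A 166 on the CPEB4-labelled array, against 949, 274 and 278 on the HCT116-GFP array. The immune marker PTPRC stayed under the filter, but the colon markers CDX2, CEACAM5 and VIL1 were dimmer than the immune marker CD79A on both arrays. The ratio of 3′ to 5′ signal of ACTB, which grows with RNA degradation, was 10.3 on the CPEB4-labelled array and 8.23 on the HCT116-GFP array, and that of GAPDH was 1.04 on the CPEB4-labelled array and 0.989 on the HCT116-GFP array. The part of this in the results was not tested.

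No mismatch repair gene differed by 2-fold at a kept probe set. The brightest kept probe sets of EXO1, MLH3, MSH6 and PMS1 lay slightly above 0, at differences of 0.08 to 0.39, and that of MSH3 lay below, at −0.75. The median over the 5 genes was 0.13, beside a median of 0.00 over all 13704 genes measured. Its direction is not settled, since averaging the kept probe sets of each gene put it at −0.037. Of those 13704 genes, 3.55% were higher and 3.85% lower by 2-fold or more, so a count of 0 among 5 genes is near the background. Of the 12 kept member probe sets, 6 lay above 0 and 6 below, and 1 of those below 0, a PMS1 probe set, reached the filter through the HCT116-GFP array alone, where it was higher. The 11 that reached it on both arrays had 6 above 0 and 5 below. None of the 12 passed 2-fold in either direction, where 4.6% of all 25010 kept probe sets were higher and 4.48% lower by that much.

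**Figure D1:**
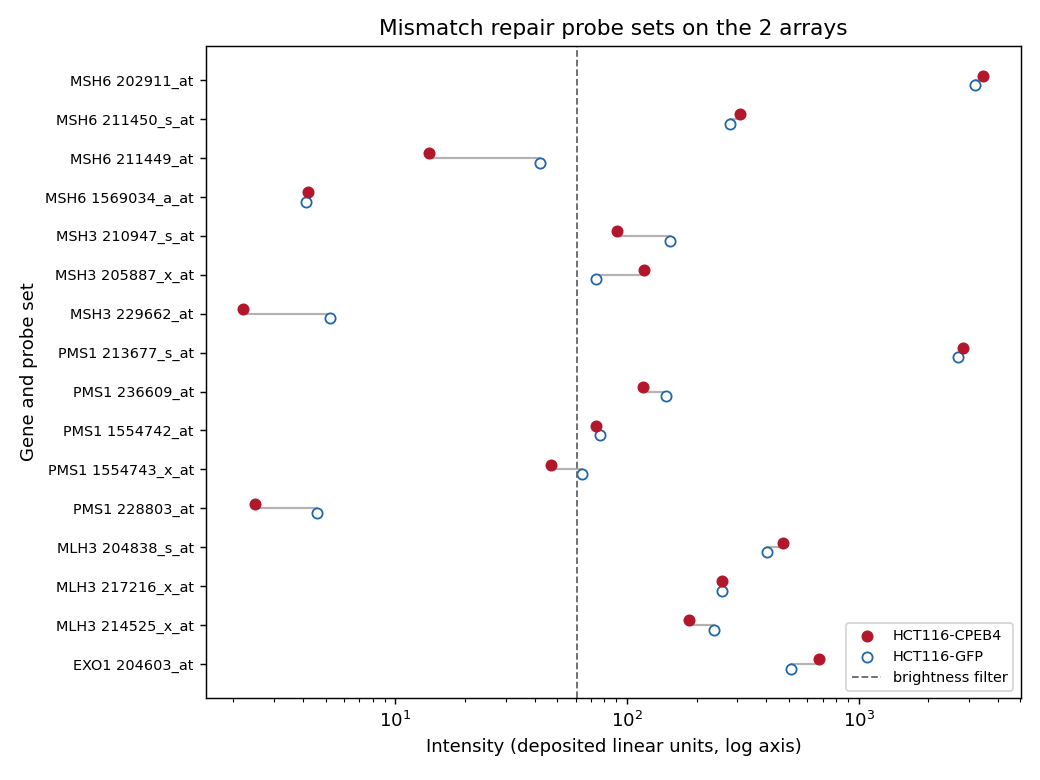
Intensity of every mismatch repair probe set (deposited linear units, log axis) on the HCT116-CPEB4 array (filled red) and the HCT116-GFP array (open blue), with a grey line joining the pair and the brightness filter of 60.8 dashed. The pairs to the right of the filter lie close together, and the longest lines belong to dim probe sets and to MSH3.

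MSH6, which pairs with another MutS protein to form MutSα and detects single mismatches and short loops, had the steadiest reading. Its probe set 202911_at read 3462 on the CPEB4-labelled array and 3169 on the HCT116-GFP array, a difference of 0.13. The second kept probe set, 211450_s_at, read 309 on the CPEB4-labelled array and 278 on the HCT116-GFP array, a difference of 0.15. Both kept probe sets were thus higher on the CPEB4-labelled array by about the same small amount, 1.09-fold and 1.11-fold. The gap between them was 0.03, smaller than in all but 5.67% of the 6520 genes with at least 2 kept probe sets. The remaining MSH6 probe sets were dim, 211449_at at 14.0 on the CPEB4-labelled array and 42.3 on the HCT116-GFP array, and 1569034_a_at at 4.21 on the CPEB4-labelled array and 4.10 on the HCT116-GFP array.

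The dim probe set 211449_at carried the widest difference of the whole group, −1.60, yet the bright MSH6 probe sets lay on the other side of 0. Without the filter, 0 of the 16 member probe sets were higher and 2 were lower by 2-fold or more, this one and a dim MSH3 probe set. Over all 41091 probe sets with 1 gene, 11.2% were higher and 11.8% lower by 2-fold, so 2 of 16 lower is again near the background.

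MSH3 forms MutSβ, which detects larger insertion and deletion loops, and its probe sets did not agree. Probe set 210947_s_at read 90.6 on the CPEB4-labelled array and 153 on the HCT116-GFP array, a difference of −0.75 or 1.69-fold lower. Probe set 205887_x_at read 118 on the CPEB4-labelled array and 73.6 on the HCT116-GFP array, a difference of 0.68 or 1.60-fold higher. The direction of MSH3 is therefore not settled, and the mean of the kept probe sets was −0.04.

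The gap of 1.43 between the kept MSH3 probe sets was wider than in 93.8% of the genes with at least 2. Both have low signal, in brightness bin 3 of 10 bins of equal size. Both differences lay inside the middle 95% of probe sets in that bin, which ran from −1.12 to 1.05. Of that bin, 6.28% differed by 2-fold or more in either direction. The third MSH3 probe set, 229662_at, was far under the filter at 2.21 on the CPEB4-labelled array and 5.23 on the HCT116-GFP array. The suffix _x_at marks probes that may hybridise to other transcripts, and _s_at marks probes shared by several transcripts, and each kept MSH3 probe set carries 1 of these marks.

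PMS1 is a MutL protein whose share in human mismatch repair is small or uncertain. Its brightest probe set, 213677_s_at, read 2823 on the CPEB4-labelled array and 2677 on the HCT116-GFP array, a difference of 0.08. The other kept probe sets were on the other side of 0. Probe sets 236609_at, 1554742_at and 1554743_x_at read 117, 73.2 and 46.9 on the CPEB4-labelled array, against 147, 76.3 and 64.1 on the HCT116-GFP array, differences of −0.34, −0.06 and −0.45.

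The mean over the 4 kept PMS1 probe sets was −0.19, and −0.11 over the 3 that reached the filter on both arrays, so the sign of this gene depends on whether the bright probe set or the mean is taken. The 2 brightest were 0.41 apart, a gap wider than in 65.4% of the genes with at least 2 kept probe sets. The range over all 4, 0.53, was wider than in only 30.3% of the 709 genes with 4 kept probe sets. Probe set 1554743_x_at was kept through the HCT116-GFP array alone and lies in the dimmest bin, where 63.2% of kept probe sets differed by 2-fold or more. The fifth, 228803_at, read 2.48 on the CPEB4-labelled array and 4.61 on the HCT116-GFP array and was dim on both.

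MLH3, the MutL protein of MutLγ, acts in meiotic crossing over and has a minor part in mismatch repair. Probe set 204838_s_at read 471 on the CPEB4-labelled array and 403 on the HCT116-GFP array, a difference of 0.22. Probe set 217216_x_at read 256 on both arrays, and 214525_x_at read 186 on the CPEB4-labelled array and 239 on the HCT116-GFP array (−0.36). The brightest MLH3 probe set was thus higher, the next was level and the third was lower, with a mean of −0.05.

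PMS2 is the MutL protein that nicks the new strand as part of MutLα. The annotation pairs 2 probe sets with both PMS2 and its near-identical copy PMS2CL, and signal from these genes cannot be separated. Those shared probe sets read 645 and 677 on the CPEB4-labelled array, against 616 and 615 on the HCT116-GFP array, differences of 0.06 and 0.14. They are given as values of the pair and were not counted as members.

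EXO1, the 5′ to 3′ exonuclease that removes the strand with the error and also resects broken DNA ends, showed the highest difference among the 5 genes at their brightest kept probe set. Its 1 probe set, 204603_at, read 674 on the CPEB4-labelled array and 513 on the HCT116-GFP array, a difference of 0.39 or 1.31-fold. In its brightness bin the middle 95% of differences ran from −0.57 to 0.64, and EXO1 stood at percentile 89.4 of that bin. It carries no cross-hybridisation mark, but no other probe set reads the same gene. The value stayed between 0.37 and 0.40 under 8 other ways of scaling or filtering. Only the scalings and the offset could move it, since a filter cannot change the value of a single probe set. None of them stands in for a replicate.

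**Figure D2:**
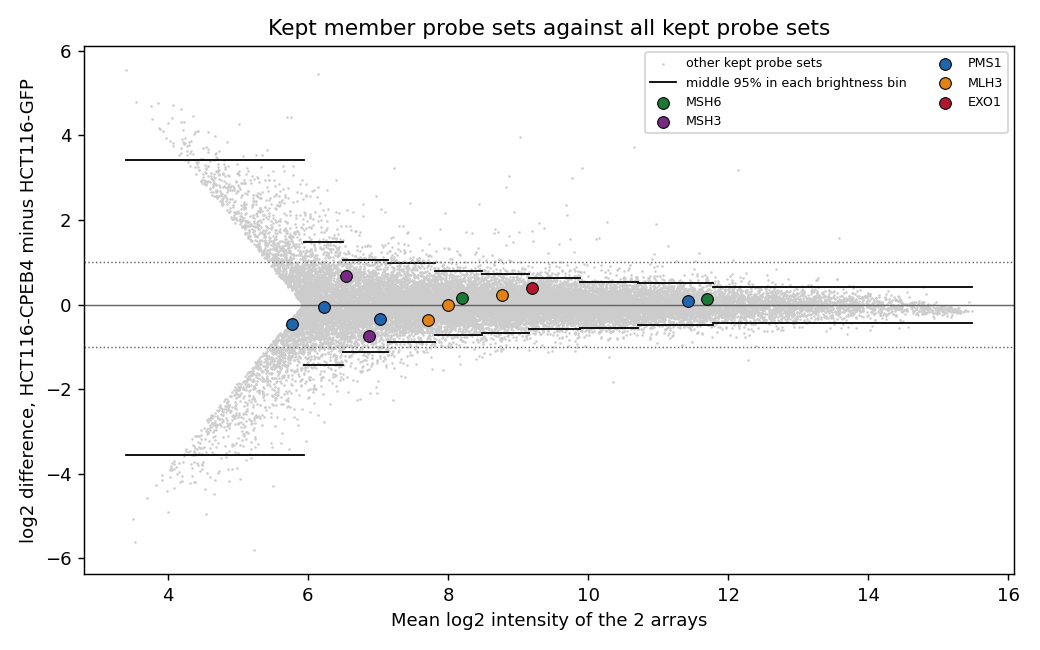
Difference between the arrays (log2, HCT116-CPEB4 minus HCT116-GFP) against the mean log2 intensity for the 25010 kept probe sets (grey), with the 12 kept mismatch repair probe sets coloured by gene, black bars for the middle 95% in each brightness bin and dotted lines at 2-fold. All 12 lie between the black bars of their bin, with EXO1 and both MSH3 probe sets nearest to them.

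All 12 kept member probe sets lay within the middle 95% of their own brightness bin. That range narrows with brightness, to between −0.49 and 0.52 in the bin that holds the bright probe sets of MSH6 and PMS1. It describes the spread of other genes on these 2 arrays, and is not a replicate error. The 4 member probe sets that reached 377, the 75th percentile of all values, were all above 0, with a median of 0.18. They belong to MSH6, PMS1, MLH3 and EXO1, 1 each. Over all 25010 kept probe sets 50.4% lay above 0, and 4 signs are too few to settle a direction.

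Probe sets of the same gene often pointed in opposite directions. This held for 3 of the 4 members with at least 2 kept probe sets, MSH3, PMS1 and MLH3, and for 54.5% of all genes with at least 2. The median gap between the 2 brightest probe sets of a gene was 0.27 over all genes. Among the members only MSH3 and PMS1 exceeded it, with MLH3 at 0.22 and MSH6 at 0.03.

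**Figure D3:**
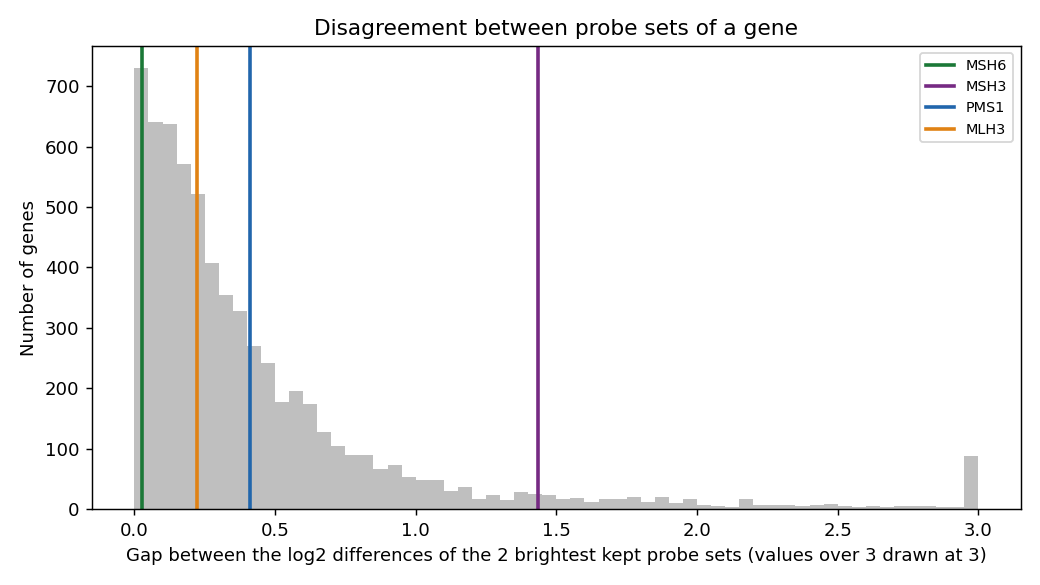
Number of genes (vertical axis) by the gap between the log2 differences of their 2 brightest kept probe sets, over 6520 genes, with values over 3 drawn in the last bar. Coloured lines mark MSH6 at 0.03, MLH3 at 0.22, PMS1 at 0.41 and MSH3 at 1.43, the last beyond the 90th percentile of 1.01.

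Promoters of the members were read because EXO1 and MSH6 are known as genes of replicating cells, and E2F factors drive such genes through short GC-rich sites. RefSeq promoter windows (GRCh38.p14), from 250 bases before to 50 bases after each annotated start, were found for all 6 genes. They were searched on both strands for TTTCCCGC, TTTCGCGC, TTTGCCGC and TTTGGCGC, the spellings of the E2F consensus, a search chosen after the intensities were seen. The stretches with a match in EXO1, MSH6 and PMS2 are shown 5′ to 3′ on the strand of the gene, with the matched bases in capitals, and the MSH3 stretch is not shown here.
EXO1, chr1:241848128-241848227, plus strand: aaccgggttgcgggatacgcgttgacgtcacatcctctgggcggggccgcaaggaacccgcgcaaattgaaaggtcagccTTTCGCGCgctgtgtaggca
MSH6, chr2:47783068-47783167, plus strand: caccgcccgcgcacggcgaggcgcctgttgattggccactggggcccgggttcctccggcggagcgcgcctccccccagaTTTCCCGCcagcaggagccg
PMS2, chr7:6009131-6009160, minus strand: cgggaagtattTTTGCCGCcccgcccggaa

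A match was present for 4 of the 6 members, EXO1, MSH6, MSH3 and PMS2, and the windows of MLH3 and PMS1 held none. In EXO1 and MSH6 the match begins just inside the transcript, at bases 5 and 4 counted from 1 annotated start. It was found in 1 of 2 EXO1 windows and 1 of 4 MSH6 windows. The PMS2 match is a single site, at −43 from 1 annotated start and at −100 from another, and so counts in 2 windows. By window, 5 of 11 member windows held a match, against 4.10% of 22199 windows of protein-coding genes. By gene, 5.40% of 15843 protein-coding genes had one.

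Of the members with a match, EXO1 was above 0 at its 1 probe set, which cannot fall on both sides, and MSH6 at both kept probe sets. MSH3 had kept probe sets at −0.75 and 0.68, and PMS2 could not be read alone. MLH3 and PMS1, without a match, had kept probe sets on both sides of 0, as MSH3 did. Over all kept probe sets 50.4% lay above 0, and a link between a match and a direction was not tested. A match is a run of letters and not a measured binding site.

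The proteins that finish a mismatch repair reaction were described as a list of 15 genes, all measured, with every gene at its brightest kept probe set. The list had a median of 0.07, with 9 genes above 0, 6 below and 0 past 2-fold in either direction. It covers the sliding clamp and its loader, the single-strand binding protein RPA, DNA polymerase delta, the ligase LIG1 and the chromatin protein HMGB1. These also serve chromosome replication.

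The loader subunits RFC2, RFC3, RFC4 and RFC5 had differences of 0.71, 0.32, 0.27 and 0.29, all above 0, although 1 of the 3 kept probe sets of RFC5 was at −0.04. RFC2 lay above the middle 95% of its brightness bin, which ran from −0.49 to 0.52, while RFC3, RFC4 and RFC5 lay inside theirs. The second kept RFC2 probe set, at 0.45, lay inside that of its own bin, which ended at 0.55. The large subunit RFC1 read 1359 on the CPEB4-labelled array and 1674 on the HCT116-GFP array (−0.30), with −0.35 at its second kept probe set. PCNA, the clamp that loader subunits place on DNA, was level at 14199 on the CPEB4-labelled array and 14206 on the HCT116-GFP array.

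DNA polymerase delta also had subunits on both sides of 0. POLD3, an accessory subunit, had the highest difference of the list and read 584 on the CPEB4-labelled array and 351 on the HCT116-GFP array (0.734). That lay just above the middle 95% of its brightness bin, which ended at 0.729. The other POLD3 probe set, at 0.60, reached the filter through the CPEB4-labelled array alone. POLD2, which joins the subunits, differed by 0.53 and the catalytic subunit POLD1 by 0.01. The small subunit POLD4 had the lowest value of the list, at 1076 on the CPEB4-labelled array against 1353 on the HCT116-GFP array (−0.33). LIG1, which seals the nick, differed by −0.27. Of the RPA genes, RPA2 differed by 0.18, RPA3 by 0.07 and RPA1 by −0.01. HMGB1 differed by −0.09 at its brightest probe set, but 3 of its 5 kept probe sets were above 0, the highest at 0.12, so its direction is not settled.

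Accessory factors and relatives of the members were few. MCM9, a helicase linked to mismatch repair, differed by 0.30, with 0.21 at its second kept probe set. SETD2, which makes the histone mark that MSH6 reads, had kept probe sets from 0.01, at the brightest, to 0.62. FAN1, a nuclease that binds MutL proteins, differed by −0.12, with probe sets from −0.54 to 0.36. MSH5 was not analysed here.

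The other nucleases of the EXO1 family, 3 genes, were all above 0 at their brightest kept probe set, where 50.1% of all genes measured were. Each lay inside the middle 95% of its brightness bin, FEN1 only just, at 0.410 where the range ended at 0.413. The 3 signs are too few to settle a direction. FEN1, which trims flaps at Okazaki fragments, read 7168 on the CPEB4-labelled array and 5394 on the HCT116-GFP array (0.41), with 0.27 at its second probe set. GEN1, a resolvase of Holliday junctions, read 323 on the CPEB4-labelled array and 217 on the HCT116-GFP array (0.57). ERCC5, the 3′ nuclease of nucleotide excision repair, read 595 on the CPEB4-labelled array and 522 on the HCT116-GFP array (0.19). The meiotic MutS gene MSH4 was dim on both arrays, at 41.2 on the CPEB4-labelled array and 9.31 on the HCT116-GFP array.

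Base excision repair, a separate small pathway that removes damaged bases, served as a yardstick. Of 17 listed genes, 15 were measured, with a median of 0.02, 9 above 0, 6 below and 0 past 2-fold in either direction. The highest was the scaffold gene XRCC1 (0.27) and the lowest the glycosylase MPG, at 859 on the CPEB4-labelled array and 1290 on the HCT116-GFP array (−0.59). MPG lay just below the middle 95% of its brightness bin, which began at −0.55. The mismatch repair median of 0.13 over 5 genes stood beside 0.41 for the 3 nucleases of the relatives, 0.07 for the genes that finish the reaction, 0.02 for base excision repair and 0.01 for the accessory factors. With the kept probe sets of each gene averaged, these medians were −0.037 for mismatch repair, 0.34, 0.07, 0.02 and 0.25, so their order is not settled, and the differences between lists were not tested.

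**Figure D4:**
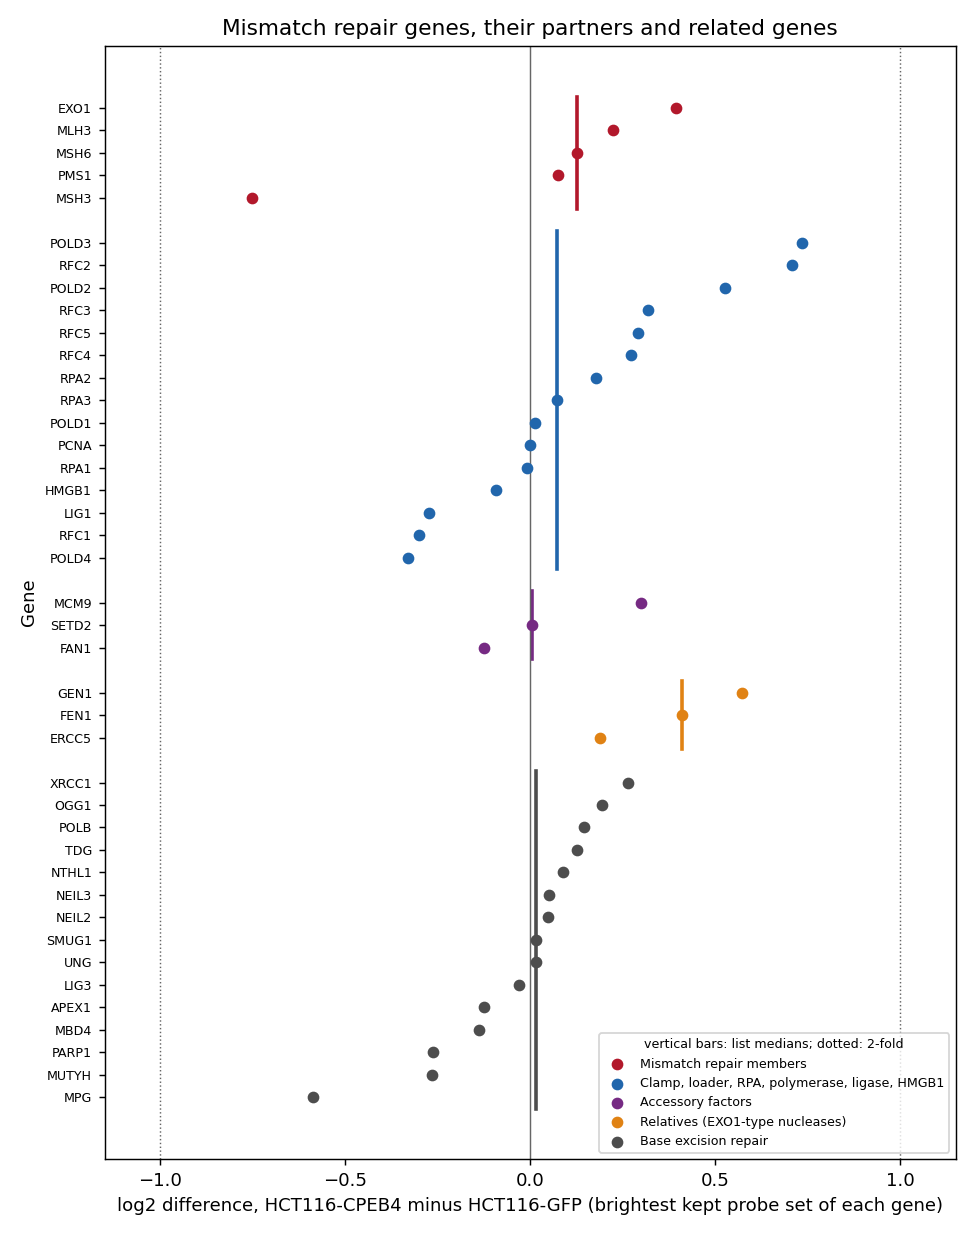
Difference between the arrays (log2, HCT116-CPEB4 minus HCT116-GFP) of each gene at its brightest kept probe set, one row per gene, coloured by list, with vertical bars at the list medians and dotted lines at 2-fold. No gene reaches 2-fold, and MSH3, at −0.75, is the farthest below 0 of the genes shown. The other kept MSH3 probe set, not drawn, was at 0.68, so the direction of MSH3 is not settled.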

How the data were processed

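The authors deposited 1 table of linear intensities. The submitters' processing notes name Partek and give it no version or role. How probes were summarised, corrected for background and scaled is unstated in the sources used here. The deposited intensities have 2% trimmed means of 500.1 on both arrays, as arrays scaled to a common level do, which leaves brightness-dependent differences in place.

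Groups came from the sample titles. Probe sets were named through the platform annotation, and current symbols were looked up by Entrez identifier in the RefSeq table of GRCh38.p14: 41097 probe sets have 1 gene, 1801 several and 11777 none named here, and 41043 of the first were found in RefSeq. The 62 control probe sets were left out. No pseudocount was added before log2. A gene was represented by the brightest of its kept probe sets on the mean log2 scale, and 10 brightness bins of equal size were cut from the kept probe sets. Python 3.11.15, pandas 2.3.3 and statsmodels 0.14.6 (lowess, span 0.3) were used.

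The procedure was tested on simulated data with planted 4-fold changes and less noise than the spread of these arrays. That checks the arithmetic only, and does not measure how often real differences of this size are false. The members and lists were chosen with earlier results of these data known. All genes of the lists fixed for the pathway are named, beyond the highest, lowest and 2-fold genes that the naming rule takes, except for base excision repair and 1 accessory gene that is not reported here. Alternatives were quantile, lowess and median scaling, an offset of 16, no filter or a 75th percentile filter, no _x_at or _s_at probe sets, and the mean over probe sets.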

Additional observations from a re-analysis of the deposited data

How the results depend on the processing

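No paired analysis was possible because each group has 1 array and the labels give no replicate numbers. A single probe set counted as stable when it moved by less than 0.27, the median gap between probe sets of a gene, and a list median when it moved by less than 0.1. By that measure all 12 kept member probe sets were stable under each alternative in which they were kept. For a single probe set only the scalings and the offset check this, since a filter cannot change its value. The near-zero MLH3 probe set 217216_x_at was the only one to change sign, to 0.00 after median scaling. The median over kept member probe sets was 0.04, −0.03 without the filter and 0.18 over the 4 probe sets that passed the 75th percentile filter. Averaging the kept probe sets of a gene turned the median member difference over genes to −0.037, from 0.13 at the brightest probe sets. Without the filter 2 member probe sets passed 2-fold, and 0 did under the other alternatives. The median of the accessory factors, 0.01, was 0.25 when probe sets were averaged, −0.01 after quantile and −0.00 after lowess scaling. The median of the relatives, measured as FEN1, GEN1 and ERCC5, was 0.41, and 0.30 over the 2 genes that passed the 75th percentile filter. The partner and base excision repair medians kept their sign, from 0.07 to 0.13 and from 0.02 to 0.05. Counting the probe sets shared by PMS2 and PMS2CL as PMS2, or asking for the filter on both arrays, alternatives chosen after seeing the data, left 0 member probe sets past 2-fold. Low signal limits the kept probe sets of MSH3 in brightness bin 3 of 10 and those of PMS1 in bins 1, 2 and 3.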
